A study of Mus musculus with 7 samples.

Results

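The genes described here are 45 genes for structural microtubule-associated proteins and stathmins, chosen by symbol from their known functions, out of 55401 genes in the count tables. The choice was made with earlier results of these data known. They comprise 22 lattice-binding members, 13 plus-end members, 3 minus-end members, 2 severing enzymes, 4 stathmins and 1 kinesin adaptor, Fez1. All 45 passed the filter on low counts, under which 17621 genes were tested.

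Microtubules are hollow polymers of alpha and beta tubulin that carry transport and give axons and dendrites their shape. Microtubule-associated proteins bind along the lattice of the polymer, track its growing plus end, cap its minus end or sever it, and stathmins sequester soluble tubulin dimers so that less is available for growth. In Purkinje cells, whose large dendritic tree and long axon are packed with microtubules, these proteins are known for their part in building and holding both compartments.

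The question asked of these libraries was which transcripts change in Purkinje cells when the nm3888 mutation, a retrotransposon insertion in an intron of the transcription factor gene Rreb1, is homozygous. RNA was recovered with tagged ribosomes (RiboTag): an HA-tagged RPL22 ribosomal protein was switched on by Cre recombinase under the PCP2 promoter, and HA was immunoprecipitated from whole cerebellum. The 4 nm3888-/- mice were Rpl22 fl/+, PCP2-Cre and homozygous for nm3888, and the 3 wild-type mice were Rpl22 fl/+, PCP2-Cre and wild type at that locus. All were 3 weeks old, and each library came from 1 mouse. The tag therefore marks cells in which PCP2-Cre was active, RNA from other cells can be carried along in the pulldown, and both genotypes carry the tag and the Cre. The library names form a first series of 2 nm3888-/- and 2 wild-type mice, all female, and a second series of 2 male nm3888-/- mice and 1 female wild-type mouse, so that in the second series sex and genotype cannot be told apart.

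Total counts ranged from 18023017 to 107937386 per library. The series stood apart from each other: processed pseudogenes took 8.19 to 9.51% of counts in the first series, whose file headers name Bowtie2 as the aligner, and 0.118 to 0.166% in the second, whose headers name STAR. The library series was therefore a term in every comparison below unless stated. Rreb1 had 20.2, 19.1, 23.7 and 10.8 CPM (counts relative to the library total after TMM scaling) in nm3888-/- mice 1 to 4, against 17.7, 17.4 and 14.4 CPM in wild-type mice 1 to 3. Its log2 fold change was 0.20 (SE 0.23, adjusted p = 0.64, edgeR). The gene that holds the insertion was thus not lower in the libraries labelled nm3888-/-, and its count does not bear out the genotype labels, on which every direction below rests. The paper reports that nm3888 removes the transcript V7, the predominant Rreb1 form in cerebellum, while X2 and X4 stayed comparable to wild type. The paper's Northern blot for total Rreb1 lost the main band in nm3888-/- samples. Its in situ probe against every Rreb1 transcript gave no signal in nm3888-/- brain. The count per gene, which was not lower, differs from those reports of total Rreb1. A count per gene does not separate the transcripts, and neither the level of each nor the reason for this difference was tested. Purkinje cell markers were abundant in all 7 libraries, with the 10 genes of the list summing to 32517 to 49200 CPM in nm3888-/- mice and 35947 to 43406 CPM in wild-type mice, and none of the 10 was called. In RNA from a mixed pulldown such as this, fewer cells of a type and less RNA per cell cannot be told apart.

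Microtubule-associated and stathmin transcripts were lower in nm3888-/- Purkinje cells in 13 of the 45 genes and higher in none. The 13 are Stmn4, Fsd1, Eml2, Nav1, Stmn2, Clip3, Map6d1, Map6, Map1a, Stmn3, Tppp3, Clasp1 and Camsap3. A gene was called when the adjusted p of edgeR's quasi-likelihood test, over all genes tested, was under 0.05. Of all 17621 genes, 5.95% were called lower, 2.58% higher and 8.54% in either direction, while of the 45 the shares were 28.9% lower and 0% higher. Because the members were chosen with earlier results of these data known, the difference between these shares is a description and not a test. At an unadjusted p under 0.05, 20 members were lower and 0 higher. DESeq2 called 15 members lower and 0 higher. It was run without the filter on low counts and called 1256 of 30710 genes lower (4.09%), against 1049 of 17621 with edgeR, so the 2 percentages have unlike denominators. The fold change was negative in 36 of the 45 (80.0%), whereas 46.6% of all genes tested had a negative one. Over the 45 the median log2 fold change was -0.21, and over all genes it was 0.03.

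The count of 13 depended on how the libraries were handled. Blocking on replicate number instead of the library series left 8 members called lower (3.24% of all genes), with no batch term 5 (1.42%) and with sex in place of the series 1, Stmn4 (0.482%). Both males are nm3888-/-, so the fit with sex compares the genotypes among females only, across the 2 series. When each library was left out in turn, between 7 members (without wild-type mouse 3) and 15 (without nm3888-/- mouse 3) were called, and without wild-type mouse 2 there were 8. Without wild-type mouse 3 the second series has no wild type, so the genotype difference of that fit comes from the first series. When only library totals were used for scaling, 11 members were called, while over all genes the calls divided into 731 lower and 675 higher, against 1049 lower and 455 higher with TMM. That scaling moved the median log2 fold change of all genes to 0.12.

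**Figure D1:**
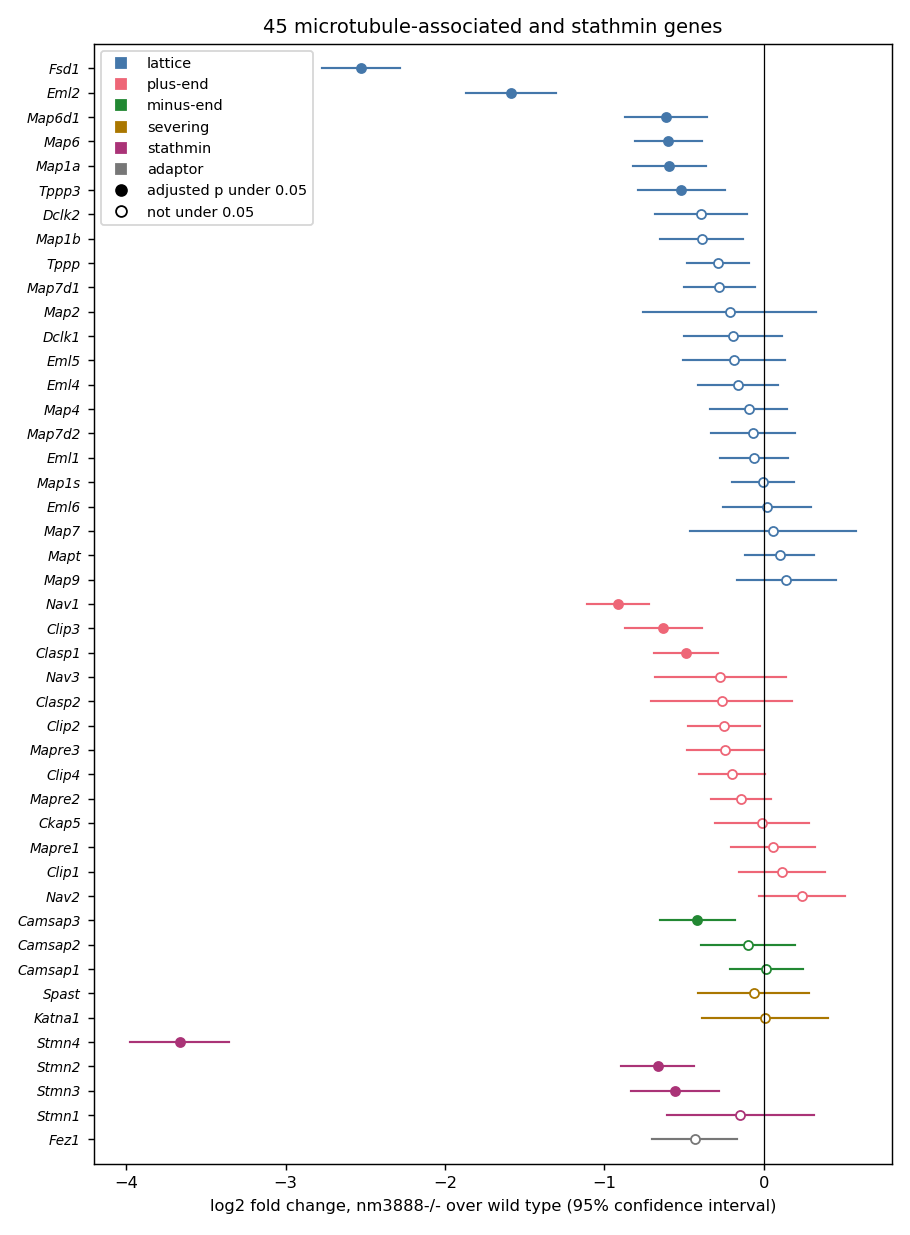
Log2 fold change (nm3888-/- over wild type) of each of the 45 genes with its 95% confidence interval, grouped by role. Filled points had an adjusted p under 0.05. The 13 filled points all lie left of 0, and Stmn4, Fsd1 and Eml2 lie beyond -1.5.

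Each stathmin binds a pair of tubulin dimers, and the 4 genes of the family differ in where they are used: Stmn1 encodes the cytosolic founding member, and Stmn2 (SCG10), Stmn3 (SCLIP) and Stmn4 (RB3) encode neuronal forms that are anchored to membranes. In wild-type mice Stmn3 was the most abundant of the 45 transcripts per kilobase of exon (880 CPM per kb) and Stmn4 the next (206 CPM per kb), while Stmn2 stood at 143 and Stmn1 at 47.0 CPM per kb. Stmn4, Stmn2 and Stmn3 were lower in nm3888-/- mice, and Stmn1 did not pass the test.

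Stmn4 (chr14:66344296-66361680 in mm10) had 23.1, 31.1, 43.5 and 34.0 CPM in nm3888-/- mice 1 to 4, against 349, 334 and 499 CPM in wild-type mice 1 to 3. Every nm3888-/- library was far below every wild-type library, in both series. The mean was 33.0 ± 8.44 CPM in nm3888-/- mice (SD, n = 4) and 394 ± 91.2 CPM in wild-type mice (SD, n = 3). The log2 fold change of -3.66 (SE 0.14, 95% interval -3.98 to -3.35, adjusted p = 4.83e-06, edgeR) leaves 0.0789 of the wild-type level. It was the largest change among the 45 genes and the only call kept under all 16 alternatives, with values of -3.65 in the first series alone and -3.68 in the second.

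Stmn2 (chr3:8509360-8561606), whose product acts in growing and regenerating axons, had 494, 572, 429 and 503 CPM in nm3888-/- mice 1 to 4, against 798, 827 and 785 CPM in wild-type mice 1 to 3. The groups did not overlap, and the log2 fold change was -0.67 (SE 0.10, adjusted p = 0.00475, edgeR). Stmn3 (chr2:181306459-181314500), which shapes neurite branching, had 544, 587, 754 and 1021 CPM in nm3888-/- mice 1 to 4, against 800, 764 and 1437 CPM in wild-type mice 1 to 3. Both genotypes were higher in the second series, and the groups overlapped over all libraries but not within either series. Its log2 fold change was -0.56 (SE 0.12, adjusted p = 0.0240, edgeR).

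Stmn1 (chr4:134468320-134473843) had 83.2, 46.4, 112 and 114 CPM in nm3888-/- mice 1 to 4, against 81.5, 55.1 and 134 CPM in wild-type mice 1 to 3. Those ranges overlapped in the first series, and the log2 fold change was -0.15 with an interval of -0.61 to 0.32 (SE 0.20, adjusted p = 0.71, edgeR), so that a decrease as large as that of Stmn3 is inside the interval. Leaving out wild-type mouse 3 brought Stmn2 to an adjusted p of 0.0574, and it ranged from 5.74e-06 to 0.145 over the 16 alternatives. Stmn3 lost its call without any 1 of wild-type mice 1 (0.0659), 2 (0.0665) and 3 (0.191) or nm3888-/- mice 1 (0.0634) and 2 (0.0538), and with the replicate block (0.0559), in a range of 0.00143 to 0.675 over the alternatives.

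The family's makeup differed between the genotypes. Of the summed stathmin level per kilobase, Stmn4 made up 1.94, 2.47, 2.77 and 1.67% in nm3888-/- mice 1 to 4, against 17.02, 17.03 and 15.01% in wild-type mice 1 to 3. Stmn3 made up 77.0, 78.4, 80.8 and 84.3% in nm3888-/- mice 1 to 4, against 65.7, 65.7 and 72.9% in wild-type mice 1 to 3, although its own CPM was lower. The share of Stmn2 followed the series more than the genotype, at 8.43 to 15.5% in nm3888-/- mice and 8.07 to 14.4% in wild-type mice. These shares sum to 100 in each mouse, so a fall of 1 member raises the others.

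**Figure D2:**
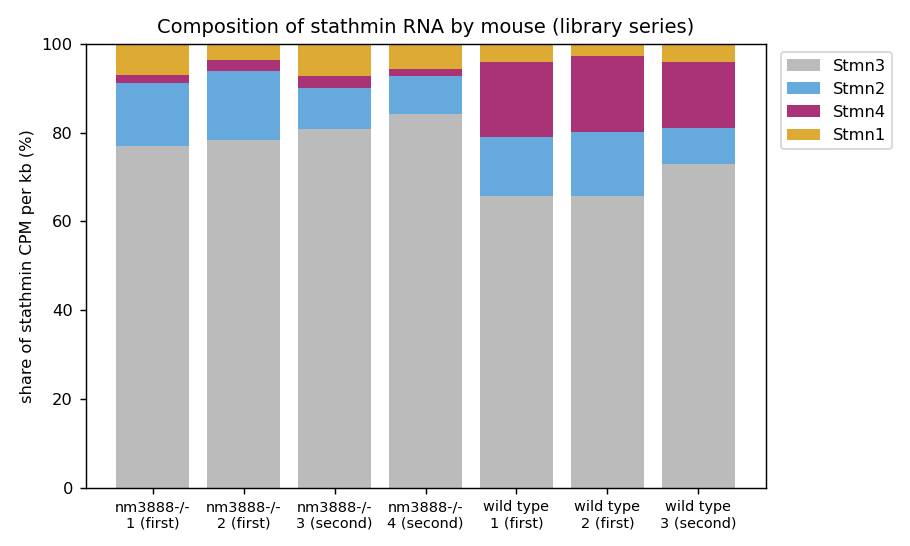
Share of each stathmin in the summed stathmin CPM per kilobase (percent, vertical axis) in each of the 7 mice, with the library series in brackets. The Stmn4 band is 1.67 to 2.77% in the 4 nm3888-/- mice and 15.01 to 17.03% in the 3 wild-type mice.

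Of the lattice-binding members, 6 of 22 were lower and none was higher, and their median log2 fold change was -0.20. The 6 belong to several families. Fsd1 encodes a coiled-coil protein with a fibronectin type III and a SPRY domain that binds microtubules, Eml2 a WD-repeat protein of the EMAP-like family, and Map6 (STOP) and Map6d1 a pair of related proteins that keep microtubules stable in the cold. Map1a encodes the large MAP1 protein of mature dendrites and axons, and Tppp3 a small tubulin polymerization-promoting protein.

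Fsd1 (chr17:55986509-55996881) had 3.30, 2.92, 6.97 and 6.97 CPM in nm3888-/- mice 1 to 4, against 18.0, 18.3 and 39.3 CPM in wild-type mice 1 to 3. Both genotypes were higher in the second series, and even so no nm3888-/- library reached a wild-type one. The log2 fold change was -2.53 (SE 0.11, adjusted p = 7.85e-06, edgeR), which leaves 0.174 of the wild-type level. Eml2 (chr7:19176421-19206482) had 5.45, 4.89, 20.8 and 19.3 CPM in nm3888-/- mice 1 to 4, against 17.6, 17.6 and 51.0 CPM in wild-type mice 1 to 3. The second-series nm3888-/- mice were above the first-series wild-type mice, and the genotypes were apart within each series. The log2 fold change was -1.59 (SE 0.12, adjusted p = 0.000149, edgeR).

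Both calls depended on the series term: without it the adjusted p was 0.0800 for Fsd1 and 0.587 for Eml2, and with sex in its place 0.0722 and 0.198. Both were called in each of the other 14 alternatives, including each series alone. Over the 16 alternatives the adjusted p ranged from 1.01e-64 to 0.0800 for Fsd1 and from 1.72e-22 to 0.587 for Eml2.

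Promoter sequence was examined because the mutated gene encodes a zinc finger transcription factor. The paper mapped binding of tagged RREB1 in Purkinje cells by ChIP-seq and found a motif similar to that of NEUROD1. It counts Stmn2, Stmn4 and Map1a among the targets. Those binding data were not used in the search of letters given here. RefSeq promoters (GRCm38.p6, from 250 bases before to 50 bases after the start site) matched 34 of the 45 genes, of which 7 were called and 27 were not. The other called genes, Stmn4, Stmn2, Map6, Tppp3, Clasp1 and Camsap3, matched no promoter, so their sequence was not examined. The 6 letters CAAACC, a core of the recognition motif described for RREB1, were present on either strand in 8 of the 34 promoters and in 14.4% of 32851 promoters genome wide. They occurred in 3 of the 7 called genes (Eml2, Clip3 and Fsd1) and in 5 of the 27 others (Clasp2, Dclk1, Dclk2, Eml1 and Mapre1). A window from each of the 3 called genes is shown, around the match nearest the start site, with the motif or its reverse complement GGTTTG in capitals. That match lay 17 bases upstream of the start site in Eml2, 241 in Clip3 and 224 in Fsd1.
Eml2, chr7:19176392-19176421: agaatacactcaGGTTTGtgggagggacca
Clip3, chr7:30291445-30291474: acacgacctGGTTTGctaagtggaggaaaa
Fsd1, chr17:55986275-55986304: caatttgaatagCAAACCggatcaatctga

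A match is a description of letters, not a site of binding. Further motifs were searched on both strands. Of the GC-rich neighbours of that core, ACCACCC was found in 3 of the 34 member promoters, beside 4.61% of all promoters. The variant CCCCACC was found in 7, beside 15.7%. The shorter CCACCC, which lies within the first of these, was found in 16, beside 31.5%. Among E-boxes, the letters CAGATG were in 8, beside 17.2%, while CAGCTG was in 12, beside 16.3%, and the form CACCTG in 13, beside 20.2%. The GC box GGGCGG was in 23, beside 35.7%. Among the 7 called genes these motifs, in the order given, occurred in 1, 0, 5, 1, 0, 2 and 3. The motif whose windows are printed was picked after these counts had been seen, and a gene can have promoters other than the one listed.

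The remaining lattice calls were of moderate size. Map6 (chr7:99267447-99337137) had 162, 150, 160 and 153 CPM in nm3888-/- mice 1 to 4, against 239, 261 and 217 CPM in wild-type mice 1 to 3. Map6d1 (chr16:20233303-20241358) had 15.4, 16.6, 16.8 and 13.6 CPM in nm3888-/- mice 1 to 4, against 25.2, 25.8 and 22.0 CPM in wild-type mice 1 to 3. Neither gene overlapped between the genotypes, and the log2 fold changes were -0.60 for Map6 (SE 0.09, adjusted p = 0.00533, edgeR) and -0.61 for Map6d1, its relative (SE 0.11, adjusted p = 0.0117, edgeR). Map1a (chr2:121289600-121310832) had 627, 772, 669 and 693 CPM in nm3888-/- mice 1 to 4, against 1074, 1124 and 967 CPM in wild-type mice 1 to 3. All its nm3888-/- libraries were below all wild-type ones, and the log2 fold change was -0.59 (SE 0.10, adjusted p = 0.00840, edgeR). Tppp3 (chr8:105467493-105471526) had 6.18, 6.26, 11.1 and 9.60 CPM in nm3888-/- mice 1 to 4, against 9.60, 8.66 and 14.3 CPM in wild-type mice 1 to 3. It overlapped over all libraries but not within a series, and its log2 fold change was -0.52 (SE 0.12, adjusted p = 0.0324, edgeR).

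Single libraries decided some of these calls. Map6d1 lost its call when any of the 3 wild-type mice was left out, with an adjusted p of 0.0550, 0.0614 and 0.0605 without wild-type mouse 1, 2 and 3, and of 0.0636 with the replicate block (range 0.000319 to 0.263 over the 16 alternatives). Tppp3 lost its call without wild-type mouse 1 (0.133), 2 (0.102) or 3 (0.160), without nm3888-/- mouse 1 (0.0683), 2 (0.0971) or 4 (0.0747), and with the block (0.128), in a range of 0.00951 to 0.729.

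The 16 other lattice members had log2 fold changes between -0.40 and 0.14, and none was called. Among them, the relatives of the called genes had values closer to 0, which follows in part from taking them among the uncalled members. Fsd1l, the relative of Fsd1 and not a member, was at -0.56 (adjusted p = 0.0969, edgeR). Map1b, the MAP1 protein prominent in developing neurons, was at -0.39 (adjusted p = 0.0716, edgeR), and Map1s, the short widely expressed form, at -0.01. The EMAP-like Eml1, Eml4, Eml5 and Eml6 were at -0.06, -0.16, -0.19 and 0.02. Tppp, best known as a protein of myelinating oligodendrocytes, was at -0.29 (adjusted p = 0.0749, edgeR). The ratio of a called gene to its relative was compared by an exact two-sided permutation test within series, whose smallest possible p is 0.0556. The log2 difference in this ratio was -0.20 for Map1a over Map1b and -1.62 to -1.39 for Eml2 over its 4 relatives, each with a p of 0.0556 by that exact test. For Tppp3 over Tppp it was -0.23 (exact p = 0.167). Over the 23 pairs compared no adjusted p was below 0.0913. The smallest possible p already lies above the threshold, so no pair could pass it, and this test cannot decide whether a ratio differed. Of the 23 pairs, 14 had that smallest p, and in 16 the nm3888-/- ratios were below wild type within both series.

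Classical neuronal proteins were among the uncalled genes. Mapt, which encodes the axonal protein tau, ranged from 1225 to 1604 CPM in nm3888-/- mice and from 1272 to 1477 CPM in wild-type mice, with a log2 fold change of 0.10 (95% interval -0.12 to 0.32). Its interval excludes a decrease of the size seen for Map1a. Map2, which marks dendrites, ranged from 62.0 to 108 CPM in nm3888-/- mice and from 69.0 to 115 CPM in wild-type mice. At -0.21 (interval -0.76 to 0.33) its change was poorly determined. Against the wild type of its own series nm3888-/- mouse 3 was at 0.65 on the log2 scale, while mice 1, 2 and 4 were at -0.72, -0.44 and -0.03. Map4, the broadly expressed relative of both, was at -0.10.

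The other uncalled lattice members were Map7 (0.06), Map7d1 (-0.28) and Map7d2 (-0.07), which recruit kinesin-1 to microtubules, the doublecortin-domain kinases Dclk1 (-0.19) and Dclk2 (-0.40, adjusted p = 0.0963, edgeR), and Map9 (0.14), which is known from the spindle and cilia. Without nm3888-/- mouse 3, Dclk2 passed the threshold (adjusted p = 0.0476, range 0.0476 to 0.802 over the alternatives). With DESeq2, Map1b passed it (0.0413), as it did with no filter on low counts (0.0281).

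**Figure D3:**
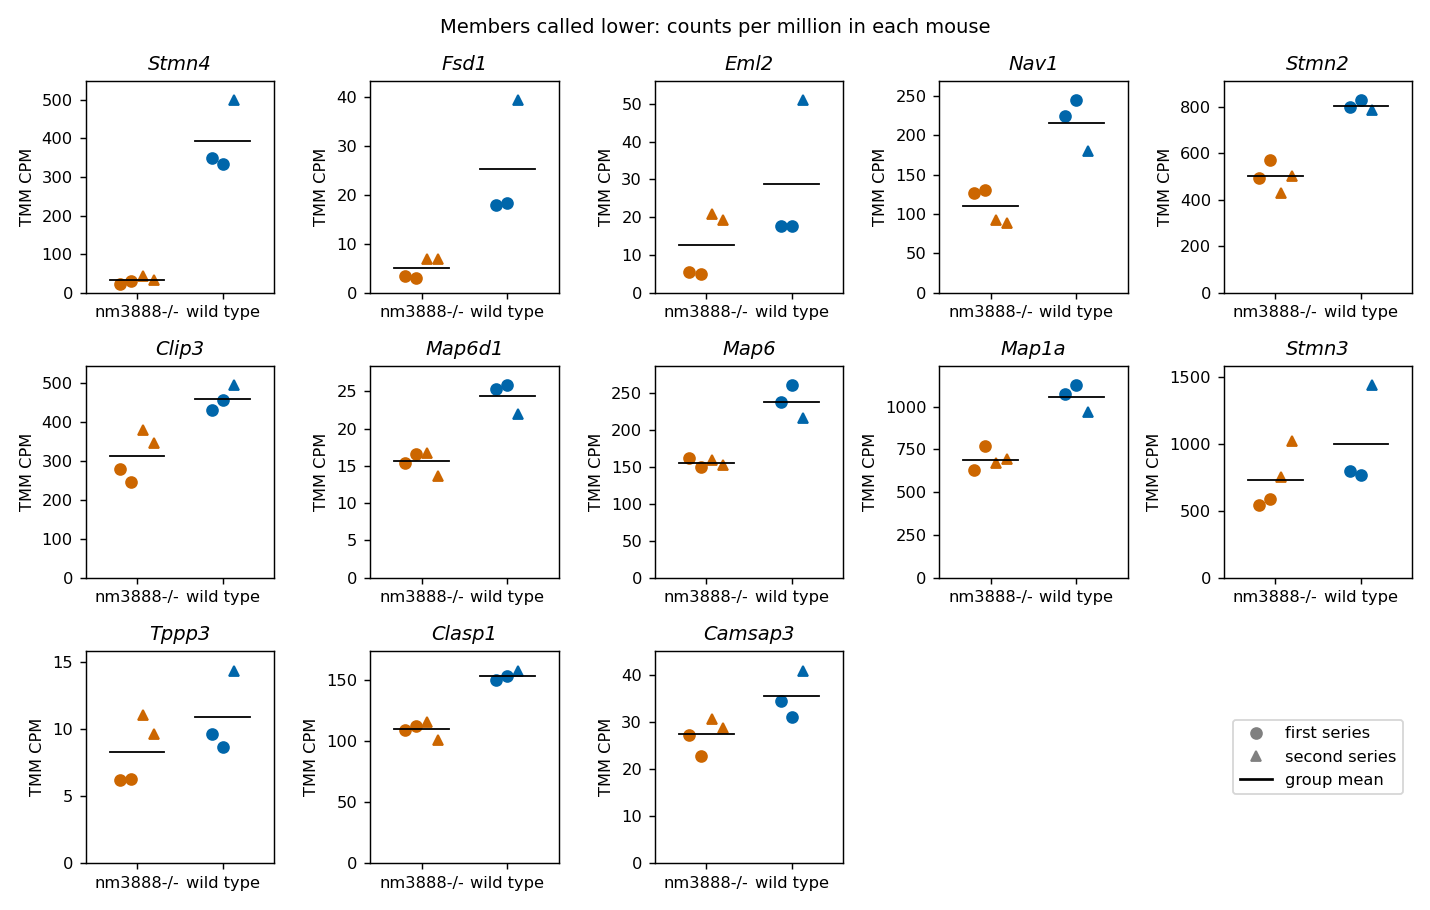
TMM-scaled CPM of the 13 called genes in each mouse (points), nm3888-/- left of wild type, with a line at each group mean. Circles are the first library series and triangles the second, and every vertical axis starts at 0. In all 13 panels the nm3888-/- points lie below the wild-type points of the same symbol.

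Plus-end proteins gather on growing microtubule tips, and 3 of the 13 members counted in this group were lower. Their median log2 fold change was -0.24. Nav1 encodes a neuron navigator that binds microtubule tips in growing neurites, and Clasp1 a protein that stabilizes plus ends and promotes rescue. Clip3 (CLIPR-59) encodes a CLIP relative found on the trans-Golgi network and endosomes, and it is counted here with its family.

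Nav1 (chr1:135434580-135688105) had 127, 131, 92.6 and 88.0 CPM in nm3888-/- mice 1 to 4, against 224, 245 and 180 CPM in wild-type mice 1 to 3. No library overlapped, both genotypes being lower in the second series, and the log2 fold change of -0.91 (SE 0.09, adjusted p = 0.000403, edgeR) was the largest of the plus-end members. Clip3 (chr7:30291728-30308367), the plus-end gene among the 3 called genes with CAAACC in the promoter, had 280, 245, 379 and 344 CPM in nm3888-/- mice 1 to 4, against 428, 456 and 493 CPM in wild-type mice 1 to 3. Clasp1 (chr1:118389058-118612678) had 109, 112, 115 and 101 CPM in nm3888-/- mice 1 to 4, against 150, 153 and 157 CPM in wild-type mice 1 to 3. Neither gene overlapped between the genotypes, in either series or over all libraries. The log2 fold change was -0.63 for Clip3 (SE 0.11, adjusted p = 0.00780, edgeR) and -0.49 for Clasp1 (SE 0.09, adjusted p = 0.0107, edgeR). Clasp1 was not called without wild-type mouse 2 (0.0580) or 3 (0.0997) or with the replicate block (0.0712), in a range of 0.000413 to 0.166 over the 16 alternatives. Nav1 lost its call with no batch term (0.0759) and with sex in place of the series (0.152), in a range of 4.76e-14 to 0.152.

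The relatives of these 3 genes were not called. Nav2 had a log2 fold change of 0.24 (interval -0.03 to 0.51) and was the only member above all wild-type libraries in every nm3888-/- library, at 17.2 to 18.4 CPM in nm3888-/- mice and 12.5 to 16.3 CPM in wild-type mice. Nav3 was at -0.27. The CLIP family members Clip1 (CLIP-170), Clip2 (CLIP-115) and Clip4 were at 0.11, -0.25 and -0.20. Clasp2 was at -0.27 (interval -0.71 to 0.18), with 61.1, 69.5, 124 and 73.02 CPM in nm3888-/- mice 1 to 4, against 96.5, 84.5 and 95.5 CPM in wild-type mice 1 to 3. There nm3888-/- mouse 3 alone was above the wild-type libraries, and without it Clasp2 was called (log2 fold change -0.44, adjusted p = 0.0382, range 0.0382 to 0.989 over the alternatives).

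End-binding proteins, the core of the plus-end complex, were at 0.06 for Mapre1 (EB1), -0.14 for Mapre2 (EB2) and -0.24 for Mapre3 (EB3), the neuronal form. Ckap5, the tubulin polymerase ch-TOG, was at -0.01, a value whose sign varied between alternatives.

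At the minus end, where CAMSAP proteins protect free ends that are not anchored at a centrosome, 1 of 3 members was lower, and the median log2 fold change was -0.10. Camsap3 (chr8:3587293-3609075) had 27.3, 22.7, 30.6 and 28.8 CPM in nm3888-/- mice 1 to 4, against 34.4, 31.0 and 41.0 CPM in wild-type mice 1 to 3. The closest libraries of the genotypes, nm3888-/- mouse 3 and wild-type mouse 2, nearly met. Its log2 fold change of -0.42 (SE 0.10, adjusted p = 0.0410, edgeR) was the weakest call of the 13.

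That call was lost in 6 of the 7 fits with 1 library left out: the adjusted p was 0.160, 0.101 and 0.234 without wild-type mouse 1, 2 and 3, and 0.126, 0.0582 and 0.0892 without nm3888-/- mouse 2, 3 and 4, and only without nm3888-/- mouse 1 did it hold (0.0288). It was also lost with the replicate block (0.122), with RLE size factors (0.0550) and with library totals (0.131), and the range over the 16 alternatives was 0.0217 to 0.413.

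Camsap1 had 95.9, 99.8, 113 and 91.6 CPM in nm3888-/- mice 1 to 4, against 92.5, 102 and 100.4 CPM in wild-type mice 1 to 3. Camsap2, known from axons and dendrites, had 195, 259, 224 and 179 CPM in nm3888-/- mice 1 to 4, against 266, 246 and 200 CPM in wild-type mice 1 to 3. Both overlapped between genotypes, with log2 fold changes of 0.01 (interval -0.22 to 0.24) for Camsap1 and -0.10 (interval -0.40 to 0.20) for Camsap2. Per kilobase, Camsap2 was the most abundant of the 3 in wild-type mice (25.8 CPM per kb), ahead of Camsap1 (11.8) and Camsap3 (5.79).

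Neither severing enzyme was called. Katna1, the catalytic subunit of katanin, had 2.72, 3.07, 5.91 and 7.44 CPM in nm3888-/- mice 1 to 4, against 3.24, 2.49 and 6.71 CPM in wild-type mice 1 to 3. Spast, which encodes spastin, had 23.1, 26.7, 34.8 and 29.8 CPM in nm3888-/- mice 1 to 4, against 33.2, 28.5 and 26.2 CPM in wild-type mice 1 to 3. The nm3888-/- values of Spast were below wild type in the first series and above it in the second. The log2 fold change was 0.01 (interval -0.39 to 0.40) for Katna1 and -0.06 (interval -0.41 to 0.28) for Spast.

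Fez1, an adaptor that links cargo to kinesin-1, had 33.4, 29.03, 73.9 and 63.5 CPM in nm3888-/- mice 1 to 4, against 47.1, 46.9 and 79.3 CPM in wild-type mice 1 to 3. Within each series the nm3888-/- mice were lower. The log2 fold change was -0.44 (SE 0.12, adjusted p = 0.0570, edgeR), just outside the threshold, and it passed with DESeq2 (0.0320), with no filter on low counts (0.0308) and without nm3888-/- mouse 3 (0.0316), in a range of 0.0308 to 1.00 over the alternatives.

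Set side by side, the lattice, plus-end and minus-end subgroups had similar shares called lower: 6 of 22 (27.3%), 3 of 13 (23.1%) and 1 of 3 (33.3%). Of the stathmins 3 of 4 were called lower, and of the severing enzymes 0 of 2, beside the 5.95% of all genes called lower. The stathmin median of -0.61 rests on 4 genes. The subgroups were not tested against each other, and the single minus-end call was the least stable.

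In the comparison of raw positions, all nm3888-/- libraries were below all wild-type libraries in 11 of the 45 genes, against 8.92% of all genes, and above them in 1, Nav2, against 5.16%. Within both series at once, the nm3888-/- mice were below wild type in 22 of the 45 (16.6% of all genes) and above it in 1, again Nav2 (14% of all genes). The 11 comprise 10 of the called genes and Clip2.

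Each series was also fitted alone. In the first series, with 2 mice a genotype, 9 members were called lower (2.86% of all genes), and in the second, with 2 nm3888-/- mice and 1 wild-type mouse, 5 (2.84%). Those 5 were Stmn4, Fsd1, Eml2, Nav1 and Stmn2, and they were among the 9, with Map1a, Map6, Map6d1 and Clip3. The fold change had the same sign in both series for 32 of the 45. Tested as an interaction, the genotype difference did not vary detectably between the series in any member: 0 were called, the smallest adjusted p was 0.84 and 2 had an unadjusted p under 0.05 (Map2 and Spast), while 14 genes of all tested (0.0795%) were called.

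**Figure D4:**
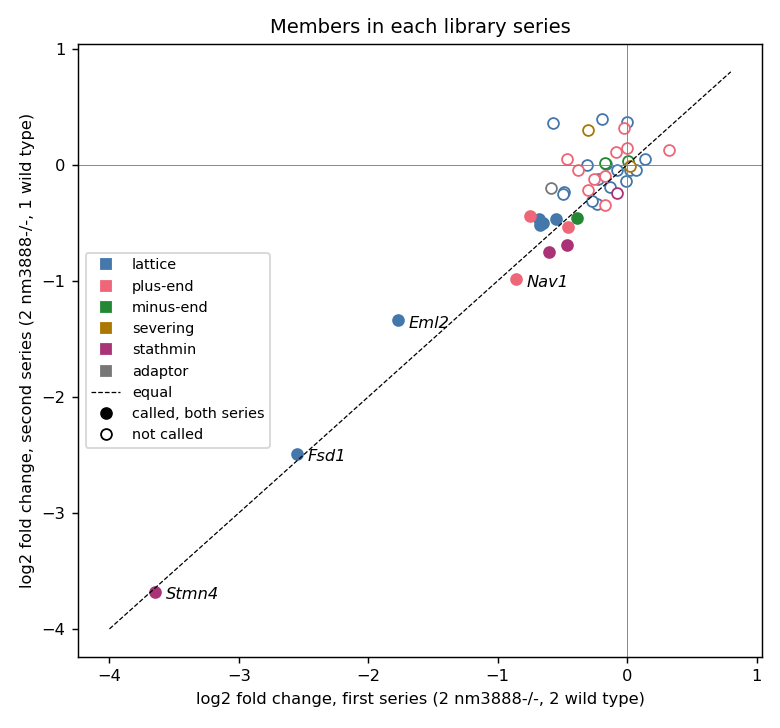
Log2 fold change (nm3888-/- over wild type) of the 45 genes in the first library series (horizontal axis, 2 mice a genotype) and the second (vertical axis, 2 nm3888-/- mice and 1 wild-type mouse). Filled points were called over both series, and the dashed line marks equal values. Stmn4, at -3.65 and -3.68, and Fsd1, at -2.55 and -2.49, lie on the line, and Nav1 and Eml2 lie near it.

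Summed markers of some other cell types were higher in nm3888-/- libraries. The 7 granule cell markers summed to 416 to 803 CPM in nm3888-/- mice and 305 to 384 CPM in wild-type mice, with nm3888-/- mouse 3 the highest, and the 10 oligodendrocyte markers to 686 to 1230 CPM in nm3888-/- mice and 504 to 735 CPM in wild-type mice. The median log2 fold changes of these lists were 0.51 (granule) and 0.54 (oligodendrocyte), none of the granule markers was called, and 2 of the oligodendrocyte markers (Cnp and Cldn11) were called higher. Over all genes 2.58% were called higher. Of the 10 markers of Bergmann glia and astrocytes, 9 had positive log2 fold changes, of 0.36 to 1.04, and the median was 0.57. Gfap among them was called higher, Hopx (-0.82) was called lower, and the list summed to 395 to 615 CPM in nm3888-/- mice and 438 to 516 CPM in wild-type mice. The sums of the interneuron, microglial and endothelial lists did not exceed 37.5 CPM in any library, with median log2 fold changes of 0.44, 0.64 and 0.15, no marker of these was called, and no marker of any list was at 0. The part of these cells in the values above was not tested. Without nm3888-/- mouse 3, 12 of the 13 calls remained (Camsap3 was lost), and Fez1, Dclk2 and Clasp2 were added.

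Other genes of the same machinery were counted in lists, beside the 5.95% of all genes called lower and the 2.58% called higher. Of 13 further paralogs of the members, 10 were tested, and 1 was lower, the katanin-like severing gene Katnal1 (log2 fold change -0.49, adjusted p = 0.0110, edgeR), with a median of 0.06 over the list. Of 22 other microtubule regulators, 4 were lower and 2 higher, with a median of -0.0017. The lower ones with the smallest adjusted p were Trim46, which organizes the parallel bundle of the axon initial segment, at -1.39 (SE 0.09, adjusted p = 7.1e-05, edgeR), Nckap5l, a microtubule-bundling protein, at -0.43, and Fign, the severing enzyme fidgetin, at -0.61. The 2 higher were Slain1, a partner of ch-TOG at plus ends, at 0.89 (SE 0.20, adjusted p = 0.0304, edgeR), and Spag5, the spindle protein astrin, at 0.37 (SE 0.09, adjusted p = 0.0369, edgeR).

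Tubulins, the substrate that all these proteins act on, were lower in 10 of 14 genes and higher in 0, beside 5.95% and 2.58% of all genes. Their median log2 fold change was -0.53. Tubb3 was at -1.35, Tubb2a at -0.93 and Tuba1b at -0.67. Summed over the 14 genes, tubulin transcripts stood at 3081 to 3510 CPM in nm3888-/- mice, against 5407 to 5820 CPM in wild-type mice. That sum includes 2 uncalled genes whose counts followed the series. Tuba1c had 51.9 to 89.0 CPM in the first series and 0.439 to 0.758 CPM in the second, and Tubb2b 95.6 to 183 and 12.1 to 17.6 CPM. Their log2 fold changes were -0.55 and -0.84 in the first series, and 0.78 and 0.35 in the second.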

How the data were processed

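Purkinje cell RiboTag RNA-seq of 4 nm3888-/- and 3 wild-type mice was used, grouped by the genotype in the labels. The authors deposited raw counts per gene: reads were deduplicated and trimmed with fastp, aligned to mm10 and counted with featureCounts (2.0.1 per the file headers, paired and reverse-stranded). The methods name Bowtie2, and the headers name STAR for the second series. The counts, 18023017 to 107937386 per library, carry no normalization.

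Genes passing filterByExpr (17621 of 55401) were tested with edgeR 4.0.16 (glmQLFit and glmQLFTest, R 4.3.3, limma 3.58.1) after TMM scaling with library series and genotype as terms. The study's methods used DESeq2, with a batch covariate that is not assigned to libraries, so the series in the library names was used. Benjamini-Hochberg adjustment ran over all genes tested, with a threshold of 0.05, and standard errors were derived from the fold change and the F statistic. The CPM values relate each count to its TMM-adjusted library total, and CPM per kb divide by the summed exon length. Each group's replicates are separate mice. The script was tested on simulated data.

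The groups share replicate numbers 1 to 3. Same-numbered libraries deviated together from their group means (correlations 0.914, 0.946 and 0.960), but so did differently numbered ones of the same series (0.926 to 0.956), and within the first series, once group means were removed, the correlation was 0.035. The blocked result is given where it changes a call.

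The 16 alternatives were RLE factors, library totals, no filter, DESeq2 1.42.0, no batch term, sex, the replicate block, each library left out and each series alone. All 45 members are named. Values of every library are given for stathmins, minus-end and severing members, Fez1 and the called lattice and plus-end members (Clasp2, outside that rule, was added after its values were seen). Up to 3 called genes per direction of each list are named by their fold changes. The members and lists were chosen with earlier results of these data known. Promoters came from RefSeq, and a further promoter window is not reported here.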

Additional observations from a re-analysis of the deposited data

Results flagged for a closer look

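Each nm3888-/- library was set against the mean wild-type level of its own series, and the highest and lowest of the 4 values were examined with Dixon's test. In 3 of the 45 genes 1 mouse stood apart from the other 3. Map1a in nm3888-/- mouse 1 was at -0.81 on the log2 scale, lower than in the other 3 nm3888-/- mice, which lay between -0.53 and -0.48. Tppp3 in nm3888-/- mouse 3 was at -0.38, closer to wild type than in the others (-0.58 to -0.55). Mapre3 in nm3888-/- mouse 3 was at -0.52, below the others (-0.20 to -0.15). Chance alone flags about 1 in 20 such groups.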

How the results depend on the processing

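Over 16 alternatives the 45 genes gave 720 values, of which 591 kept their sign and their side of the threshold, 63 lost a call and 7 gained one. The sign changed in 59, all of 18 uncalled genes, and 0 of the called genes changed sign. No member was called higher under any alternative.

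Counts of called genes moved as follows. The moves were over 1.5 times, except at the upper ends of the ranges with libraries left out and with no filter or DESeq2. Over all genes, 1504 became 309 with no batch term, 102 with sex in place of the series, 812 with the replicate block and 679 in the first series alone, and 599 to 1425 when each library was left out. The 13 members became 5 with no batch term, 1 with sex, 8 with the block and 5 in the second series alone, and 7 to 15 with libraries left out. The 6 lattice members became 2 with no batch term, 0 with sex and 2 in the second series. The 3 plus-end members became 1, 0 and 1 under these, and the 3 stathmins became 1 with sex and 1 to 3 with libraries left out. The minus-end call fell to 0 with RLE factors, library totals, no batch term, sex, the block and either series alone, and was 0 or 1 with libraries left out. The block lost the calls of Clasp1, Stmn3, Camsap3, Tppp3 and Map6d1 and no other. No filter or DESeq2 gave 15 members, and 2060 and 2050 genes.

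Uncalled log2 fold changes of opposite sign were, with DESeq2, Ckap5 0.0010 and Map1s 0.0054, and with RLE factors 0.0079 and 0.014. With library totals they were Ckap5 0.080, Eml1 0.030, Map1s 0.088, Map7d2 0.022 and Spast 0.027, with no batch term Ckap5 0.14, and with no filter Katna1 -0.0056. With the block they were Ckap5 0.033, Katna1 -0.052 and Map7 -0.029, and with sex Camsap1 -0.0085, Clip1 -0.027, Eml6 -0.029, Katna1 -0.52 and Map7 -0.32. In the first series they were Clip1 -0.026, Map1s 0.024, Map7 -0.19 and Map9 -0.0050, and in the second Camsap2 0.015, Ckap5 0.11, Clasp2 0.053, Dclk1 0.00073, Eml6 -0.042, Katna1 -0.0074, Map2 0.36, Map4 0.0077 and Spast 0.30. Leaving libraries out gave ranges through 0 of -0.037 to 0.022 for Map1s, -0.20 to 0.28 for Map7, -0.17 to 0.024 for Map7d2, -0.0077 to 0.28 for Map9, -0.054 to 0.075 for Eml6, -0.030 to 0.16 for Mapre1, -0.028 to 0.23 for Clip1, -0.093 to 0.084 for Ckap5, -0.037 to 0.063 for Camsap1, -0.19 to 0.013 for Camsap2, -0.080 to 0.098 for Katna1, -0.31 to 0.061 for Spast and -0.40 to 0.017 for Stmn1. The cause was not tested.

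Sex and genotype cannot be told apart in the second series, which holds 1 wild-type mouse, and the fit with sex leaves the series term out. Leaving out a library or a series leaves as few as 3 mice, and the values then assume that a lone wild-type mouse varies like the others.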
